A study of Homo sapiens with 6 samples.

Results

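The 50 genes described here encode proteins of homologous recombination, the Fanconi anaemia pathway and the checkpoint kinases that respond to broken or stalled DNA. They were chosen by name, from breast cancer predisposition genes to the chromatin proteins that gather at breaks, and all 50 were found among the 26485 genes of the count table. RNA was measured in 6 libraries of HCC38, a triple negative breast cancer line that the labels class as basal-like, each made from polyadenylated RNA with a stranded kit. In the siCIP2A group, cells received 1 of 3 siRNAs against CIP2A (siCIP2A#1, siCIP2A#2 or siCIP2A#3), with 1 library each. The control group held 2 non-targeting siRNAs (SCR#2 and SCR#3) and a mock, again with 1 library each. Oligofectamine carried the siRNAs; for the mock, one label speaks of reagent alone and another text of no transfection. No time after transfection is stated in the labels, nor whether each library had a culture of its own, so the p-values measure only the spread between these libraries, which may be technical. In bulk RNA, fewer cells of one cell cycle phase and less RNA per cell cannot be told apart.

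Homologous recombination repairs a double-strand break by copying the sister chromatid: the ends are resected, BRCA1, PALB2 and BRCA2 prepare single-stranded DNA for strand exchange, and motor proteins and helicases process the joined molecules. The Fanconi proteins unhook crosslinks by attaching ubiquitin to FANCD2 and FANCI, and ATR with CHEK1 holds the cell cycle while replication recovers. CIP2A, known first as an inhibitor of the phosphatase PP2A, binds TOPBP1 in mitosis and holds broken chromosomes together, and cells without BRCA1 or BRCA2 are known to depend on it. Many of these genes are known to be transcribed mainly around S phase.

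The targeted gene was low in every siCIP2A library. CIP2A, listed under its older symbol KIAA1524, had 16.3 CPM (counts per 1e6 counts, scaled by TMM factors) with siCIP2A#1, 45.8 with siCIP2A#2 and 19.3 with siCIP2A#3, against 98.8 in the mock, 99.7 with SCR#2 and 103 with SCR#3. That left 16.25%, 45.53% and 19.16% of the control mean, so siCIP2A#2 left the most CIP2A RNA. Each siRNA on its own fell below the controls by edgeR's quasi-likelihood test, with adjusted p of 0.000241, 0.0165 and 0.000468. Over the 3 siRNAs together the log2 difference was -1.90 ± 0.30 (SE), yet its edgeR adjusted p was 0.708 (unadjusted 5.22e-05). Libraries held 15547526 to 18161451 counts in the siCIP2A group and 13995187 to 17116379 in the control group, and 13562 genes, all 50 among them, passed the filter on low counts. Of the markers of the labelled cell type, the basal keratin KRT14 was at 0 in all libraries, KRT5 and KRT17 stayed at or below 0.068 CPM, and EPCAM and CDH1 at or below 1.22 CPM in every library. Of the other markers on that list of 10, VIM lay between 4315 and 4802 CPM, KRT18 between 395 and 708, KRT8 between 252 and 438, EGFR between 72.9 and 84.4 and FOXC1 between 9.55 and 11.6. The oestrogen receptor gene ESR1 stood at or below 0.351 CPM. The list of 5 luminal and receptor markers that holds it summed to 51.18 to 76.67 CPM, and 3 of the 5 passed the filter on low counts. Leukocyte markers summed to 151.49 to 202.62 CPM, with 1 of 5 passing that filter and 2 to 3 of the 5 at 0 in each library. Endothelial markers summed to 3.59 to 7.30 CPM. The fibroblast markers summed to 18.01 CPM with siCIP2A#1, against 6.12 to 9.10 in the other libraries. Of these 4 markers, 3 passed the filter on low counts. Their median log2 difference from the controls was 1.06 with siCIP2A#1, 0.26 with siCIP2A#2 and -0.68 with siCIP2A#3. The part of these markers in the differences of the 50 genes was not tested.

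None of the 50 genes passed the test when the 3 siRNAs were compared with the 3 controls. At an edgeR adjusted p of 0.05, 0 of the 50 were called higher and 0 lower, beside 0.0% of the 13562 genes tested in each direction. The targeted gene CIP2A did not pass there either, so the lack of calls does not show that the 50 were unchanged. At an unadjusted p of 0.05, 0 of the 50 were reached in either direction, against 202 genes higher (1.49%) and 167 lower (1.23%) over the table. DESeq2 and limma-voom also called 0 of the 50, and DESeq2 called 3 genes of the table. The median log2 difference of the 50, siCIP2A minus control, was -0.06, with 39 of 50 below 0, while the median of all genes tested was -0.0011 with 50.3% below 0. Single genes lay between -0.26 and 0.10, with standard errors of 0.09 to 0.25, and the sign of 22 of the 50 turned under at least 1 other setting, such as 1 library left out. For 5 of the 50 (RAD51C, RAD51D, FANCE, FANCD2 and BRCC3) every siCIP2A library was below every control library, beside 4.39% of all genes tested. The opposite arrangement was found for 0 of the 50, beside 3.25% of all genes. Without siCIP2A#2 the median was -0.02 with 28 of 50 below 0, and without siCIP2A#3 it was -0.14 with 43 of 50 below 0.

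**Figure D1:**
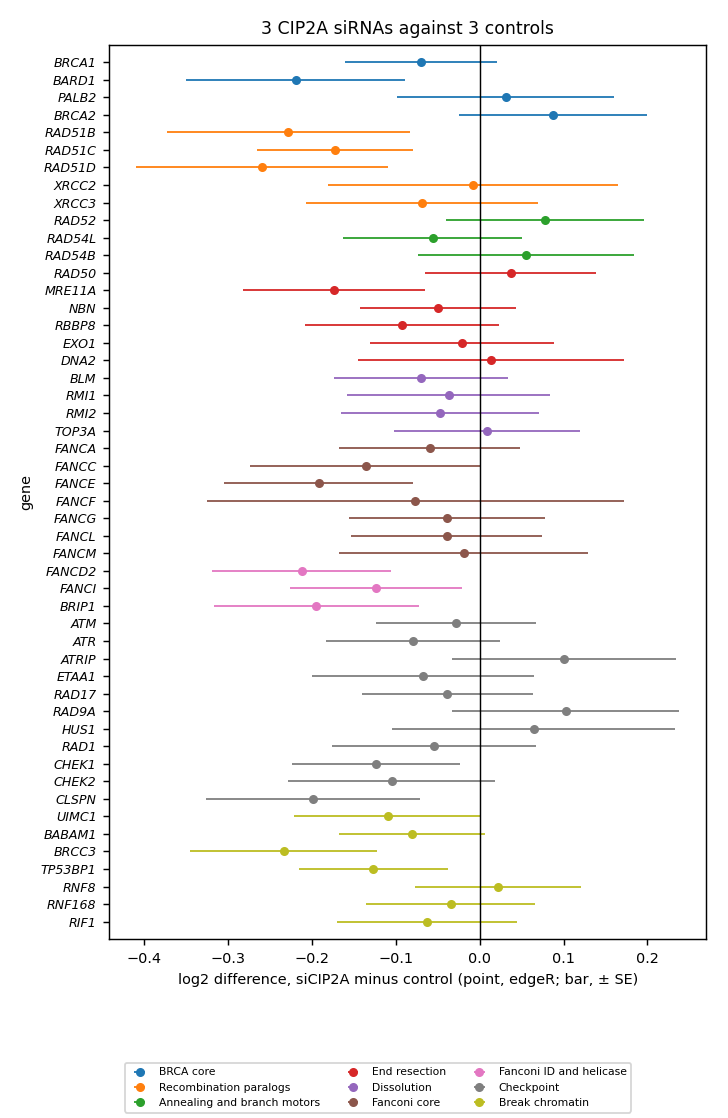
Log2 difference of each of the 50 genes, siCIP2A minus control (x axis; point, edgeR estimate; bar, ± SE; 3 libraries per group), with genes down the page by role. The points run between -0.26 and 0.10, and 39 of 50 lie left of 0.

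None of the 4 BRCA core genes passed the edgeR test between the groups, and BARD1 had the lowest log2 difference of them. BRCA1, the ubiquitin ligase that commits breaks to recombination (chr17:43044295-43170245, minus strand, hg38), had 61.9, 62.0 and 65.4 CPM with siCIP2A#1, #2 and #3, against 66.2 in the mock, 64.2 with SCR#2 and 68.3 with SCR#3. The groups overlapped, since the siCIP2A#3 library exceeded SCR#2. BARD1, the obligate partner of BRCA1 (chr2:214725646-214809711, minus strand), had 24.4, 26.9 and 33.0 CPM in the siCIP2A libraries, against 31.3, 35.5 and 31.3 CPM in the mock, SCR#2 and SCR#3. Its means were 28.1 ± 4.39 CPM in the siCIP2A group and 32.7 ± 2.40 CPM in the control group (SD, n = 3 each), and the log2 difference of -0.22 ± 0.13 did not pass (edgeR adjusted p = 0.999). With siCIP2A#1 and #2 BARD1 was below all controls, and with siCIP2A#3 it was among them. That difference was -0.35 without siCIP2A#3 and -0.13 without siCIP2A#1. BRCA2, which acts after resection to start strand exchange, had 30.3, 36.7 and 35.1 CPM in the siCIP2A libraries, against 30.6, 33.5 and 31.9 CPM in the mock, SCR#2 and SCR#3. PALB2, the bridge between BRCA1 and BRCA2, had 21.9, 21.9 and 24.4 CPM, against 19.1, 22.4 and 25.2 CPM in the same order of controls. Both overlapped between the groups, with log2 differences of 0.09 for BRCA2 and 0.03 for PALB2, and the sign for PALB2 turned without the mock (-0.06) or without siCIP2A#3 (-0.02).

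The 5 recombination paralogs RAD51B, RAD51C, RAD51D, XRCC2 and XRCC3, whose proteins form complexes that act in strand exchange, all had a log2 difference below 0, from -0.26 to -0.01, but those of XRCC2 and XRCC3 turned with single libraries left out. RAD51C (chr17:58692573-58735611, plus strand) had 44.7, 43.9 and 43.2 CPM with siCIP2A#1, #2 and #3, against 49.7 in the mock, 49.95 with SCR#2 and 48.9 with SCR#3. No siCIP2A library reached the lowest control, and the means were 43.9 ± 0.73 CPM in the siCIP2A group and 49.5 ± 0.55 CPM in the control group (SD, n = 3 each). The log2 difference of -0.17 ± 0.09 had an edgeR adjusted p of 0.999 (unadjusted 0.0878) and lay between -0.18 and -0.16 when any single library was left out. RAD51D, found in the same complex, had 6.92, 8.20 and 7.06 CPM in the siCIP2A libraries, against 8.80, 8.76 and 8.95 CPM in the mock, SCR#2 and SCR#3, again with no overlap (log2 difference -0.26 ± 0.15, edgeR adjusted p = 0.999). The exons of RAD51D overlap those of the read-through gene RAD51L3-RFFL on the same strand, so its counts are uncertain. RAD51B had 13.8, 16.5 and 14.6 CPM in the siCIP2A libraries, against 14.6, 19.5 and 18.4 CPM in the mock, SCR#2 and SCR#3. Here the mock sat with the siCIP2A libraries. XRCC3, a paralog with a high mock value, had 62.8, 77.6 and 85.0 CPM with siCIP2A#1, #2 and #3, against 94.1 CPM in the mock but 72.5 with SCR#2 and 69.9 with SCR#3. It was the one gene of the 50 at an unadjusted p under 0.05 between the non-targeting siRNAs and the mock (log2 difference -0.40, edgeR adjusted p = 0.780), beside 5.18% of all genes lower and 1.14% higher there. That test against the mock took its spread from the non-targeting pair and from the 3 CIP2A siRNAs, with 3 residual degrees of freedom, and the mock had 1 library. XRCC2 ran from 11.4 CPM with siCIP2A#1 through 13.4 with siCIP2A#2 to 17.02 with siCIP2A#3, against 12.4, 13.2 and 16.4 CPM in the mock, SCR#2 and SCR#3.

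Among the genes for strand annealing and branch migration, differences were near 0 (-0.06 to 0.08). RAD52, the annealing factor, had 17.5, 18.1 and 19.3 CPM in the siCIP2A libraries, against 17.8, 17.2 and 17.1 CPM in the mock, SCR#2 and SCR#3, with overlapping groups and a log2 difference of 0.08 ± 0.12 (edgeR adjusted p = 0.999). RAD54B, a motor protein that remodels joint molecules, stood highest with siCIP2A#3, at 29.3 CPM. It had 23.8 CPM with siCIP2A#1 and 23.4 with siCIP2A#2, against 22.3, 24.6 and 26.7 CPM in the mock, SCR#2 and SCR#3.

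The end resection genes spanned -0.17 to 0.04. MRE11A, the nuclease of the MRN complex (chr11:94415578-94493908, minus strand), had 46.5, 37.4 and 42.3 CPM with siCIP2A#1, #2 and #3, against 45.2, 49.1 and 48.2 CPM in the mock, SCR#2 and SCR#3. The siCIP2A#2 and #3 libraries were below all controls and siCIP2A#1 lay among them, for a log2 difference of -0.17 ± 0.11 (edgeR adjusted p = 0.999), or -0.10 without siCIP2A#2. Its partner RAD50, the ATPase of the same complex, was instead highest with siCIP2A#2, at 134 CPM, beside 106 with siCIP2A#1 and 112 with siCIP2A#3, against 112, 112 and 120 CPM in the mock, SCR#2 and SCR#3. Its counts are uncertain, since 7525 of its 8306 exon bases are shared on the same strand with AC116366.3. The third subunit gene, NBN, had a log2 difference of -0.05 and overlapping groups. DNA2, the nuclease and helicase of long-range resection, showed a wide spread within the siCIP2A group: 22.4 CPM with siCIP2A#1, 16.8 with siCIP2A#2 and 26.7 with siCIP2A#3, against 21.6, 20.4 and 23.4 CPM in the mock, SCR#2 and SCR#3. The siCIP2A#2 library was the lowest of the 6 and siCIP2A#3 the highest, so the group means nearly cancelled (21.99 ± 4.93 CPM in the siCIP2A group and 21.8 ± 1.49 CPM in the control group, SD, n = 3 each). RBBP8, which encodes the resection activator CtIP, had 74.0, 75.2 and 96.9 CPM in the siCIP2A libraries, against 83.3, 85.7 and 93.5 CPM in the mock, SCR#2 and SCR#3. With siCIP2A#1 and #2 it was below all controls, and with siCIP2A#3 above them all.

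The genes of the dissolvasome, the complex that separates double Holliday junctions, lay between -0.07 and 0.01. BLM, its helicase, had 33.6, 32.7 and 35.2 CPM in the siCIP2A libraries, against 35.5, 33.4 and 37.7 CPM in the mock, SCR#2 and SCR#3, with overlapping groups and a log2 difference of -0.07 ± 0.10 (edgeR adjusted p = 0.999).

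The 7 Fanconi core genes had log2 differences from -0.19 to -0.02, and 0 of the 7 passed the edgeR test. For 5 of the 7 (FANCA, FANCF, FANCG, FANCL and FANCM) the sign turned with single libraries left out. FANCE, the core subunit that contacts FANCD2 (chr6:35452356-35467103, plus strand), had 23.3, 22.8 and 23.6 CPM with siCIP2A#1, #2 and #3, against 28.7, 26.6 and 24.3 CPM in the mock, SCR#2 and SCR#3. The siCIP2A libraries were nearly equal and below all controls, but the controls themselves spread over a wider range (23.3 ± 0.39 CPM in the siCIP2A group and 26.6 ± 2.19 CPM in the control group, SD, n = 3 each). The log2 difference was -0.19 ± 0.11 (edgeR adjusted p = 0.999). FANCG, another core subunit, had 99.3, 90.3 and 116 CPM in the siCIP2A libraries, against 119 CPM in the mock, 97.3 with SCR#2 and 98.3 with SCR#3, so the mock and siCIP2A#3 were the highest. FANCM, the translocase that anchors the core complex to DNA, had 18.1, 16.1 and 22.1 CPM, against 16.5, 19.9 and 20.6 CPM. FANCF, an adaptor subunit, rested on few reads, with 27 to 37 counts in the siCIP2A libraries and 27 to 35 in the control libraries, or 2.00, 1.74 and 2.00 CPM against 1.96, 1.75 and 2.37 CPM.

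The 2 substrates of the core complex and the helicase gene BRIP1 had a median log2 difference of -0.19, or -0.11 without siCIP2A#2, and by siRNA their medians were -0.24, -0.39 and 0.02 with siCIP2A#1, #2 and #3. FANCD2 (chr3:10026414-10101930, plus strand) had 67.1, 56.5 and 71.9 CPM with siCIP2A#1, #2 and #3, against 76.7 in the mock, 73.0 with SCR#2 and 77.0 with SCR#3. Every siCIP2A library was below every control, with siCIP2A#2 the farthest and siCIP2A#3 just under SCR#2. Means were 65.2 ± 7.92 CPM in the siCIP2A group and 75.5 ± 2.23 CPM in the control group (SD, n = 3 each), with a log2 difference of -0.21 ± 0.11, an edgeR adjusted p of 0.999 and an unadjusted p of 0.0693. Without siCIP2A#2 the difference was -0.12. FANCI, the partner of FANCD2, had 105 CPM with siCIP2A#1, 113 with siCIP2A#2 and 136 with siCIP2A#3, against 131, 126 and 129 CPM in the mock, SCR#2 and SCR#3. In this gene siCIP2A#1 was lowest and siCIP2A#3 above all controls. BRIP1, a helicase that binds BRCA1, had 35.2, 31.8 and 42.2 CPM in the siCIP2A libraries, against 39.6, 40.7 and 44.6 CPM in the mock, SCR#2 and SCR#3 (log2 difference -0.19 ± 0.12, edgeR adjusted p = 0.999), and its difference was -0.11 without siCIP2A#2 and -0.31 without siCIP2A#3.

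The 11 checkpoint genes ranged from -0.20 to 0.10. CLSPN, the adaptor through which ATR activates CHEK1 (chr1:35720218-35769967, minus strand), had the lowest log2 difference of the group, with 75.8 CPM with siCIP2A#1, 61.8 with siCIP2A#2 and 91.0 with siCIP2A#3, against 90.9, 83.3 and 88.2 CPM in the mock, SCR#2 and SCR#3. With siCIP2A#1 and #2 it was below all controls, and with siCIP2A#3 it was level with the mock. Means were 76.2 ± 14.6 CPM in the siCIP2A group and 87.5 ± 3.86 CPM in the control group (SD, n = 3 each), and the log2 difference was -0.20 ± 0.13 (edgeR adjusted p = 0.999), or -0.07 without siCIP2A#2 and -0.35 without siCIP2A#3. CHEK1, the kinase downstream of ATR, had 94.7, 77.8 and 93.7 CPM, against 92.8, 98.5 and 98.7 CPM. RAD9A, HUS1 and RAD1 encode the clamp that is loaded at stalled forks. RAD1 had 67.2 CPM with siCIP2A#1, 48.2 with siCIP2A#2 and 58.6 with siCIP2A#3, against 57.0, 61.7 and 62.1 CPM in the mock, SCR#2 and SCR#3, so that the highest and the lowest of the 6 libraries were both siCIP2A. RAD9A had 18.2, 22.5 and 19.0 CPM, against 20.8, 17.1 and 17.8 CPM, and was highest with siCIP2A#2, where RAD1 was lowest. HUS1, with 6.33, 6.58 and 5.53 CPM against 6.402, 5.43 and 5.83 CPM, overlapped between the groups and, like RAD9A, was lowest with SCR#2 and highest with siCIP2A#2. The log2 differences of ATR (-0.08), CHEK2 (-0.10) and ATRIP (0.10) were within 1 SE of 0.

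Of the genes for proteins that act on chromatin at breaks, BRCC3 had the lowest unadjusted p of all 50. BRCC3, a deubiquitinase that trims ubiquitin chains at breaks (chrX:155071420-155123074, plus strand), had 36.1, 30.1 and 35.7 CPM with siCIP2A#1, #2 and #3, against 42.6 in the mock, 39.0 with SCR#2 and 38.3 with SCR#3. All siCIP2A libraries were below all controls, the means being 34.0 ± 3.32 CPM in the siCIP2A group and 39.97 ± 2.32 CPM in the control group (SD, n = 3 each). The log2 difference of -0.23 ± 0.11 had an unadjusted p of 0.0578 and an edgeR adjusted p of 0.999. TP53BP1, which restrains resection, had 171, 148 and 164 CPM in the siCIP2A libraries, against 166, 183 and 179 CPM in the mock, SCR#2 and SCR#3. RIF1, its effector, had 167, 165 and 212 CPM, against 177, 195 and 195 CPM, so its lowest and highest libraries were again both siCIP2A. BABAM1, a scaffold of the BRCA1-A complex, had 94.5, 99.5 and 98.4 CPM, against 108, 104 and 97.5 CPM.

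**Figure D2:**
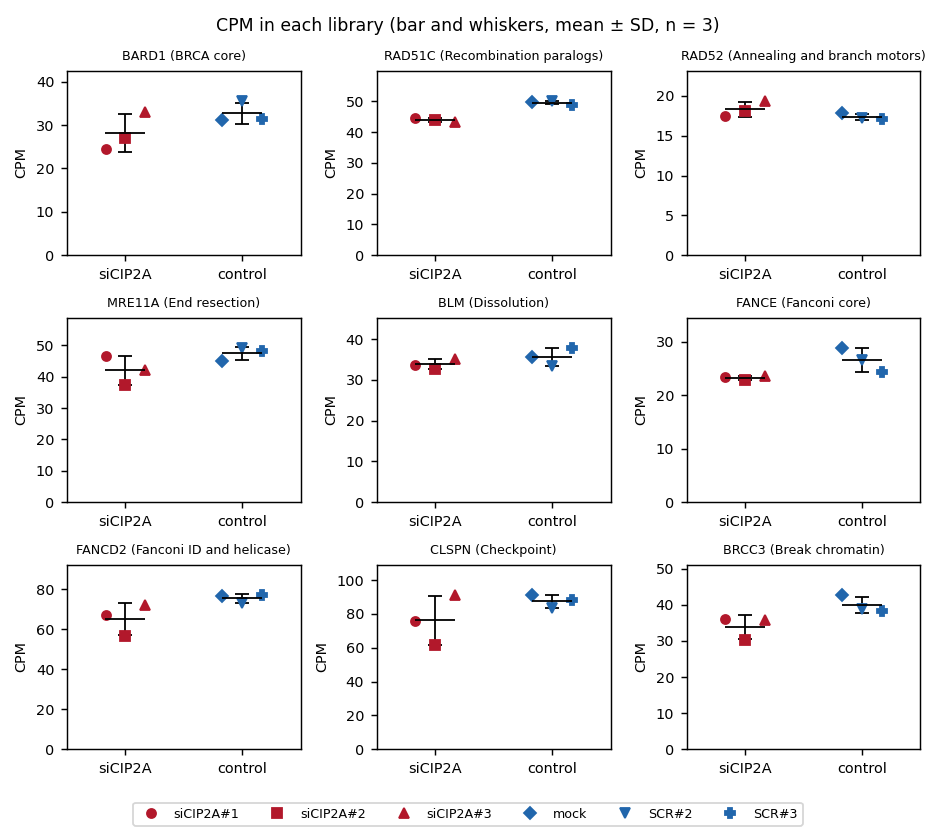
CPM of the gene with the smallest unadjusted p in each of the 9 role groups (y axis, from 0), for each siCIP2A library and each control library (points; bar and whiskers, mean ± SD, n = 3). RAD51C, FANCE, FANCD2 and BRCC3 do not overlap between groups, while CLSPN runs between 61.8 and 91.0 CPM within the siCIP2A group.

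The median over the 50 genes was below 0 with siCIP2A#1 and siCIP2A#2 and just above 0 with siCIP2A#3. With 1 library per siRNA, a relation of these medians to the CIP2A level was not tested. Against the 3 controls, the median log2 difference of the 50 was -0.08 with siCIP2A#1 (41 of 50 below 0), -0.18 with siCIP2A#2 (42 of 50) and 0.04 with siCIP2A#3 (19 of 50). Among the controls themselves, the non-targeting siRNAs against the mock had a median of 0.05 (20 of 50 below 0). Over all genes tested the medians were -0.0063, -0.0030 and -0.0091, with 51.2%, 50.6% and 52.0% below 0. The siCIP2A#2 library, with the most CIP2A RNA of the 3, was the lowest of all 6 libraries for 26 of the 50 genes (52%), beside 21.4% of all genes tested. The siCIP2A#1 library was lowest for 13 (beside 18.3% of all genes) and siCIP2A#3 for 1 (beside 20.6%). Among the 3 siRNAs alone, siCIP2A#3 was highest for 32 of the 50, beside 34.1% of all genes.

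**Figure D3:**
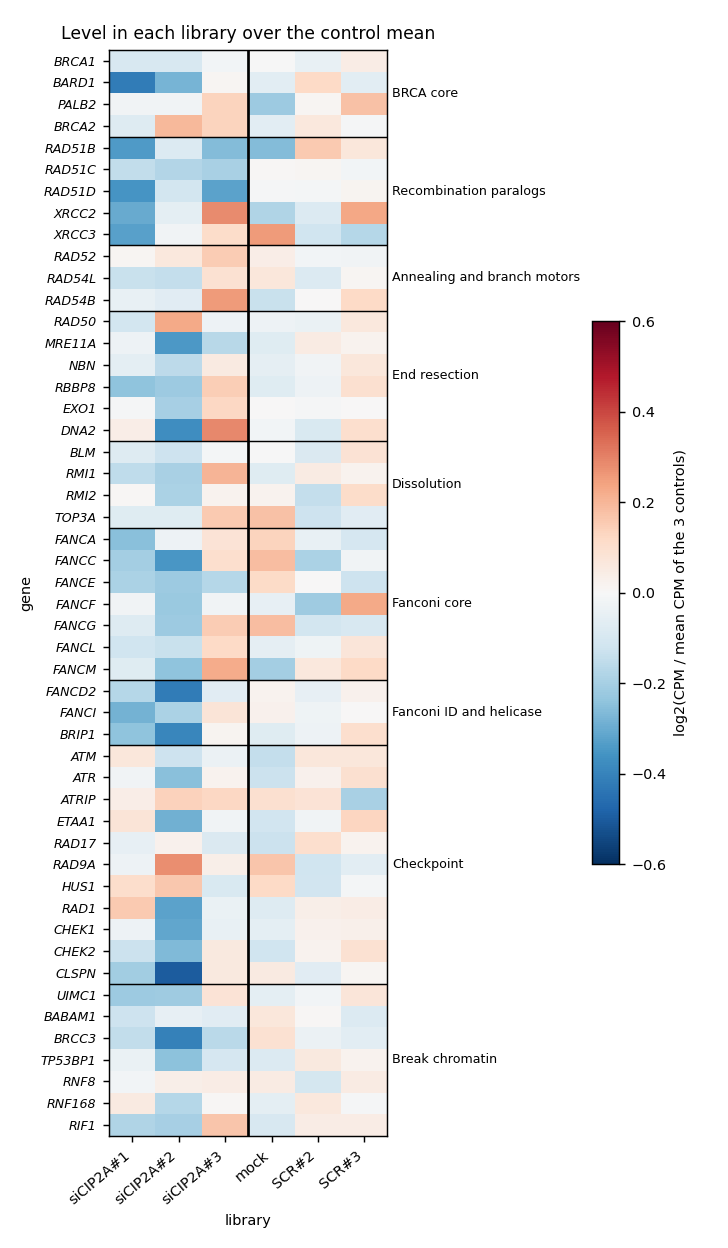
Level of each of the 50 genes (rows, by role) in each library (columns; siCIP2A left of the line, controls right of it), as the log2 ratio of CPM to the mean CPM of the 3 controls. The siCIP2A#2 column is the lowest of the 6 for 26 genes, whereas siCIP2A#3 is the lowest for 1 and the highest for 14.

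Single-siRNA tests had 1 library on one side, which is assumed to vary like the controls. At an edgeR adjusted p of 0.05, 0 of the 50 genes were called with any siRNA, beside 0.059% of all genes higher and 0.059% lower for siCIP2A#1. The shares for siCIP2A#2 were 0.0516% higher and 0.0221% lower, and for siCIP2A#3 they were 0.0% higher and 0.00737% lower. DESeq2 also called 0 of the 50. With siCIP2A#1, BARD1 (-0.42 ± 0.14) and FANCI (-0.28 ± 0.10) had an unadjusted p under 0.05, beside 4.38% of all genes lower and 5.57% higher; their edgeR adjusted p were 0.349 and 0.371. With siCIP2A#2 there were 9 such genes, all lower, beside 6.21% of all genes lower and 5.38% higher. CLSPN was the lowest, at -0.50 ± 0.11 (edgeR adjusted p = 0.237), followed by FANCD2 at -0.42 ± 0.11 (edgeR adjusted p = 0.280) and BRCC3 at -0.41 ± 0.13 (edgeR adjusted p = 0.342). The others were BRIP1 (-0.39), DNA2 (-0.37), MRE11A (-0.34), RAD1 (-0.32), CHEK1 (-0.31) and TP53BP1 (-0.25). With siCIP2A#3 there were 0, beside 5.24% of all genes lower and 2.99% higher; its smallest p values belonged to DNA2 (0.29 ± 0.14), RAD54B (0.25 ± 0.14) and RAD51D (-0.32 ± 0.18). Set against the lowest control of each gene, 27 of the 50 were below it with siCIP2A#1 (beside 28.9% of all genes), 33 with siCIP2A#2 (30.7%) and 8 with siCIP2A#3 (28.6%). The 8 were RAD51B, RAD51C, RAD51D, MRE11A, FANCE, FANCD2, BRCC3 and TP53BP1. Above the highest control stood 1 of the 50 with siCIP2A#1 (26.5% of all genes), 6 with siCIP2A#2 (28.6%) and 16 with siCIP2A#3 (25.7%).

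Genes among the 50 were called in the single-siRNA tests without the mock, and with either other control left out 0 were. Without the mock, the spread came from SCR#2 and SCR#3 alone, the least different pair of controls (chi-square per degree of freedom of 3.22, against 9.06 and 11.4 for the pairs with the mock), with 1 residual degree of freedom. By edgeR's adjusted p, 6 of the 50 were then lower with siCIP2A#1 (BARD1, BRIP1, FANCI, RAD51B, RBBP8 and RIF1), beside 6.28% of all genes, and 0 were higher, beside 7.48%. With siCIP2A#2, 15 were lower (ATR, BARD1, BRCC3, BRIP1, CHEK1, CHEK2, CLSPN, DNA2, ETAA1, FANCD2, MRE11A, RAD1, RBBP8, RIF1 and TP53BP1), beside 10.4% of all genes, and RAD50 and RAD9A were higher, beside 12.0%. With siCIP2A#3, 0 were lower, beside 4.80%, and FANCG, TOP3A and XRCC3 were higher, beside 4.85%. CLSPN stood at -0.47 ± 0.08 with siCIP2A#2 in that test (edgeR adjusted p = 4.11e-05).

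The differences between siRNAs were tested directly, again with the spread of the 3 controls. Between siCIP2A#2 and siCIP2A#3 the median over the 50 genes was -0.22 with 40 of 50 below 0, while 48.4% of all genes were below 0. None of the 50 passed the edgeR adjusted p, beside 0.0% of all genes in each direction, and 8 had an unadjusted p under 0.05, all lower with siCIP2A#2, beside 7.37% of all genes lower and 8.24% higher. They were CLSPN, DNA2, FANCC, FANCD2, BRIP1, RBBP8, RMI1 and RIF1, and DNA2 had the widest gap, with a log2 difference of -0.66 (edgeR adjusted p = 0.192). Between siCIP2A#1 and siCIP2A#3 the median was -0.11 with 39 of 50 below 0, 0 of the 50 passed (beside 0.361% of all genes higher and 0.147% lower), and 6 were lower at an unadjusted p under 0.05, beside 5.6% of all genes; higher were 0, beside 7.96%. These were BARD1, XRCC2, RBBP8, RMI1, FANCI and RIF1. Between siCIP2A#2 and siCIP2A#1 the median was -0.02 and 0 of the 50 passed, beside 0.0147% of all genes higher and 0.0% lower. At an unadjusted p under 0.05, RAD50 was higher with siCIP2A#2 than with siCIP2A#1 (beside 5.38%), and DNA2 and RAD1 were lower (beside 6.71%). Without the mock, edgeR called 16 of the 50 lower with siCIP2A#2 than with siCIP2A#3, beside 10.5% of all genes, and RAD50 higher, beside 11.4%. It called 12 lower with siCIP2A#1 than with siCIP2A#3, beside 8.71%, and 0 higher, beside 9.26%. With siCIP2A#2 against siCIP2A#1 it called 5 lower, beside 8.28%, and RAD50 and XRCC3 higher, beside 8.42%.

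Cell cycle markers summed lowest in the siCIP2A#1 and siCIP2A#2 libraries. The 18 S phase and replication markers had median log2 differences of -0.20 with siCIP2A#1, -0.20 with siCIP2A#2 and 0.03 with siCIP2A#3, and 0 of the 18 passed the edgeR test with any siRNA. Their summed level was 2907 CPM with siCIP2A#1, 2892 with siCIP2A#2 and 3402 with siCIP2A#3, against 3642 in the mock, 3125 with SCR#2 and 3295 with SCR#3, and no marker was at 0. Between the non-targeting siRNAs and the mock, 17 of these 18 markers were below 0 on the log2 scale (median -0.16, 0 of 18 called), where the median of the 50 genes was 0.05. The 18 markers of G2 and mitosis had medians of -0.14, -0.20 and 0.04, with 0 of 18 called. For the non-targeting siRNAs against the mock, their median was 0.02 with 8 of 18 below 0. They summed to 4891, 4702 and 5614 CPM with siCIP2A#1, #2 and #3, against 5325, 5235 and 5509 CPM in the mock, SCR#2 and SCR#3. In both lists the sum was below all controls with siCIP2A#1 and #2 and not with siCIP2A#3. The part of cell cycle phase in the differences among the 50 genes was not tested.

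**Figure D4:**
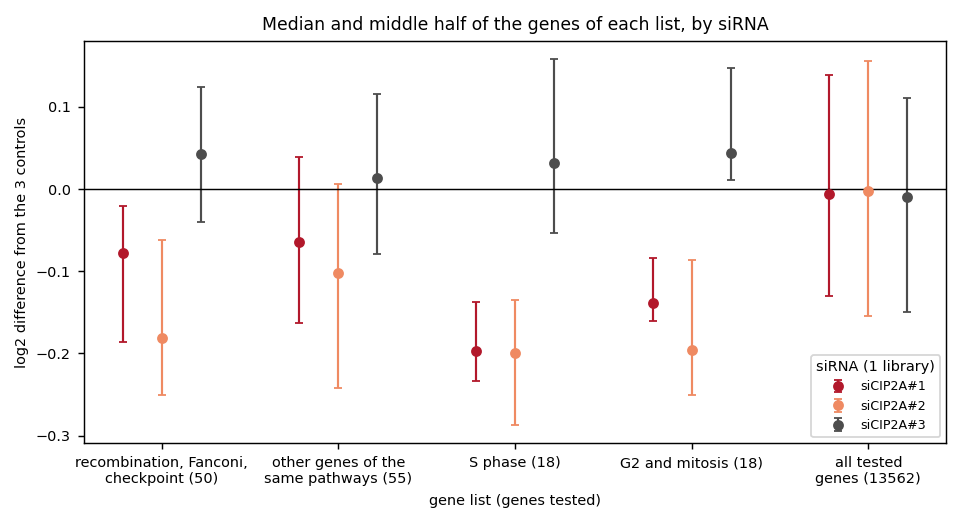
Log2 difference of each siRNA from the 3 controls (y axis; point, median over the genes of a list; bar, lower to upper quartile) for the 50 genes, other genes of the same pathways, S phase markers, G2 and mitosis markers, and all genes tested. In the first 4 lists the siCIP2A#3 median is just above 0 (0.01 to 0.04) and the other medians lie between -0.20 and -0.06.

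Another 56 genes of the same pathways, of which 55 passed the filter on low counts, were tested in the same way. By edgeR's adjusted p, 0 of the 55 passed in the comparison of 3 siRNAs with 3 controls, and their median was -0.06 with 38 of 55 below 0. By siRNA the medians were -0.06, -0.10 and 0.01 with siCIP2A#1, #2 and #3. The 1 gene at an unadjusted p under 0.05, beside 1.23% of all genes lower and 1.49% higher, was ABRAXAS1, listed as FAM175A, which scaffolds BRCC3 and BABAM1 in the BRCA1-A complex. It had 22.8, 18.1 and 18.8 CPM in the siCIP2A libraries, against 23.4, 27.6 and 26.2 CPM in the mock, SCR#2 and SCR#3, with no overlap between groups (log2 difference -0.37 ± 0.13, unadjusted p = 0.0148, edgeR adjusted p = 0.999). MUS81 and GEN1, nucleases that cut recombination intermediates, were also below all controls in every siCIP2A library, with log2 differences of -0.16 and -0.13, which made 3 of 55 so arranged (5.45%, beside 4.39% of all genes tested). MUS81 had 31.5, 31.6 and 30.3 CPM against 39.8 in the mock, 32.7 with SCR#2 and 31.7 with SCR#3, so siCIP2A#2 stood just under SCR#3, and its difference was -0.05 without the mock. CDC25C, a phosphatase that drives mitotic entry, differed by -0.12 (-0.06 without siCIP2A#1), and MCM8, a helicase subunit, by -0.16 (-0.02 without siCIP2A#2 and -0.36 without siCIP2A#3). Like DNA2, MCM8 was lowest with siCIP2A#2 and highest with siCIP2A#3, with 53.2, 44.7 and 70.9 CPM against 59.1, 64.3 and 65.0 CPM. SWSAP1, a subunit of the Shu complex that acts in recombination, was at 4.97, 4.58 and 3.47 CPM against 4.29, 2.63 and 3.12 CPM, a log2 difference of 0.39 ± 0.24, or 0.60 without the mock and 0.23 without SCR#2.

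The 50 genes covered a wide range of levels. Divided by exon length (CPM per kilobase, averaged over the 6 libraries), they had a median of 9.46, against 8.06 for the 13272 genes tested that have an exon length. BABAM1 was the highest, at 64.6 ± 1.73 in the siCIP2A group and 68.4 ± 3.59 in the control group, followed by FANCG (38.8 ± 5.05 and 39.9 ± 4.67), XRCC3 (23.5 ± 3.53 and 24.6 ± 4.15) and FANCI (22.8 ± 3.05 and 24.8 ± 0.44, SD, n = 3 each). In each of BABAM1, FANCG, XRCC3 and FANCI the libraries of the groups overlapped. At the low end, FANCF had 0.65 ± 0.05 and 0.69 ± 0.11, RAD51D 0.73 ± 0.07 and 0.87 ± 0.01, HUS1 2.05 ± 0.18 and 1.96 ± 0.16, and FANCM 2.54 ± 0.42 and 2.57 ± 0.30, in the siCIP2A and the control group. The exon length merges the exons of all annotated transcripts of a gene, so a gene with long exons in only some transcripts reads low. BRCA1 was at 8.06 ± 0.26 and 8.46 ± 0.26, above BRCA2 at 2.84 ± 0.27 and 2.67 ± 0.12. Between the highest and the lowest of the 6 libraries the 50 genes differed by a median of 1.28-fold (1.10 to 1.58), close to the 1.31-fold of 12070 genes at or above the level of the lowest of them.

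**Figure D5:**
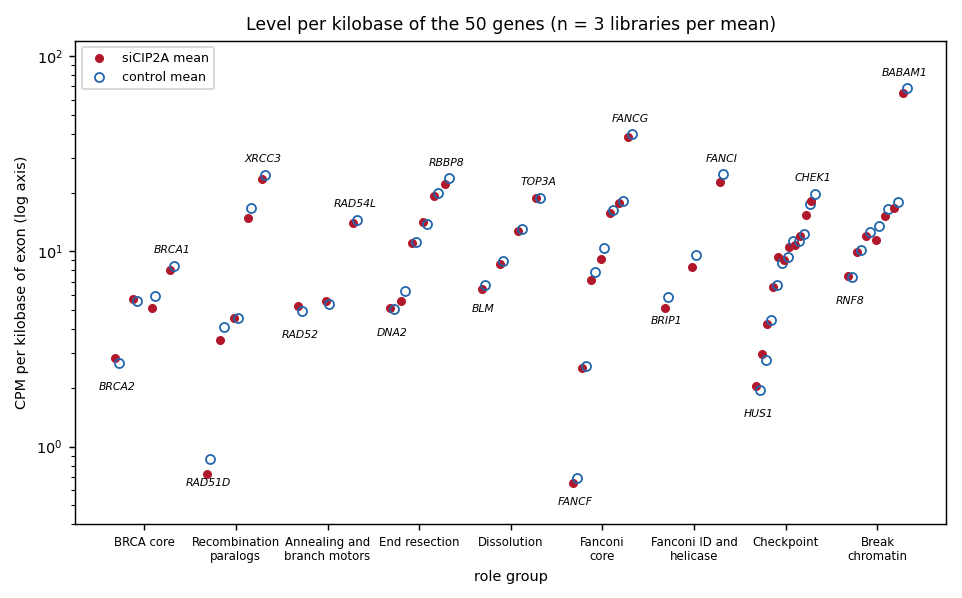
CPM per kilobase of exon (log axis) of the 50 genes by role group, as means of 3 siCIP2A libraries (filled) and 3 control libraries (open), with some genes named. BABAM1 stands highest and FANCF lowest, and within each gene the means of the groups lie close together.

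E2F factors switch on S phase genes by binding promoters, so their letters were counted in the promoter windows of the RefSeq table (GRCh38.p14; 250 bases before the start to 50 after), in which 44 of the 50 genes had an entry. Any of TTTCCCGC, TTTGGCGC, TTTCGCGC or TTTGCCGC, on either strand, was found in 6 of the 44 (13.6%: XRCC2, EXO1, FANCA, FANCC, FANCD2 and CLSPN), against 3.33% of all 27305 windows and 5.39% of the 10614 windows of genes tested. The windows of FANCD2 (chr3:10026187-10026486, plus strand), CLSPN (chr1:35769929-35770228, minus strand) and XRCC2 (chr7:152676092-152676391, minus strand) are shown because all 3 hold the word TTTCCCGC read on the opposite strand, in capitals as GCGGGAAA, beginning at -2, -5 and 21 bases from the start.
FANCD2: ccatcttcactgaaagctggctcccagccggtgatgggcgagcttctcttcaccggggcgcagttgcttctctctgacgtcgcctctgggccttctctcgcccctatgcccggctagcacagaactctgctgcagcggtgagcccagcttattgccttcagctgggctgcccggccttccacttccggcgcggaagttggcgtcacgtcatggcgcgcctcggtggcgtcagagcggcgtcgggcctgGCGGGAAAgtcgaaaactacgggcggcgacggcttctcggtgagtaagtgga
CLSPN: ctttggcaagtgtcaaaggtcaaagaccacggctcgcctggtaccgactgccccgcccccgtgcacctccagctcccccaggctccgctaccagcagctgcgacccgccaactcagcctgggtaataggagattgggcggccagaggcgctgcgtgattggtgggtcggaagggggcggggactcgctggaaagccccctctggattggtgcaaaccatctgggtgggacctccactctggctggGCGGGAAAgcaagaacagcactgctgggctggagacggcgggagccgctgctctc
XRCC2: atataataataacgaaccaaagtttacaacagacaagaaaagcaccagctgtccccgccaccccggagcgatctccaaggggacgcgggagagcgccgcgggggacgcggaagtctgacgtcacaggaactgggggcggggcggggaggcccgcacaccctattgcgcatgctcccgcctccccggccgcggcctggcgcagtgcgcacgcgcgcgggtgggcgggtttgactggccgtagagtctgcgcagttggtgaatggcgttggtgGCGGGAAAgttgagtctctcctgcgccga
FANCD2 and CLSPN were lowest with siCIP2A#2, whereas XRCC2, with the same letters, was lowest with siCIP2A#1 and highest with siCIP2A#3. Over the 6 genes the median log2 difference was -0.20, -0.27 and 0.09 with siCIP2A#1, #2 and #3, and over the 38 genes without the letters it was -0.08, -0.17 and 0.01. The NF-Y letters CCAAT were in 47.7% of the 44 windows (36.7% of those of genes tested), the CHR letters TTTGAA or TTCGAA in 9.09% (10.9%), the ETS letters CCGGAAGT in 15.9% (8.77%) and the palindromic NRF1 motif in 0.0% (2.45%). A match is a description of the letters in the window and not a binding site. Only a single window was used per gene, so a gene without the letters there may hold them at another of its starts.

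In GENCODE 29, 13 of the 50 genes (26.0%) have an opposite-strand protein-coding gene starting within the 1000 bases before their own start. The share over 12513 protein-coding genes tested was 9.82%. Pairs whose models overlap at their starts were not counted. The outer end of each gene model was taken as its start, so starts inside a model and non-coding partners were not considered. By that rule the partner of BRCA1 was NBR1, an autophagy receptor gene 236 bases from the outer end of the BRCA1 model. NBR1 had log2 differences of 0.20, 0.15 and -0.25 with siCIP2A#1, #2 and #3, beside -0.10, -0.10 and -0.02 for BRCA1. BRCC3 starts 58 bases from CMC4, which was at 0.03, -0.14 and 0.07, beside -0.15, -0.41 and -0.16 for BRCC3. FANCM and FKBP3, 621 bases apart, were at -0.07, -0.24 and 0.22 for FANCM and at -0.23, -0.33 and 0.03 for FKBP3.

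The strand setting of the counting is not given, so genes that overlap another gene are uncertain. By exon overlap in GENCODE 29, TP53BP1 shares 3067 bases with TUBGCP4, XRCC3 1452 with KLC1 and FANCA 1402 with ZNF276, all on opposite strands. RAD50 shares 7525 bases with AC116366.3, ATRIP 1515 with TREX1, RAD54B 2891 with FSBP and BABAM1 850 with AC010463.1, on the same strand. By name, FANCD2, CHEK2, BRCC3, MRE11A, RBBP8, RAD1 and RAD17 have pseudogene copies that could share reads with them.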

How the data were processed

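Per the labels' protocols, RNA of HCC38 cells was isolated with a column kit and libraries were made with a stranded mRNA kit. The build hg38, STAR 2.5.4b, Subread 1.5.1 and bcl2fastq 2.17 are named in the submitters' processing notes. The sources used here do not give the annotation, the strand setting or how reads with several matches were treated. The authors deposited whole-number counts per gene, not normalized, per the file headers, in 1 table of 26485 genes. A spreadsheet had altered 51 symbols, of which 50 were restored from the Entrez identifiers in the table.

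Counts were tested in R 4.3.3 with edgeR 4.0.16 (TMM factors, filterByExpr with a minimum count of 10, robust quasi-likelihood fit, Benjamini-Hochberg over 13562 genes, threshold 0.05), first 3 siCIP2A against 3 control libraries, then with each siRNA as its own level (2 residual degrees of freedom) and with the mock as its own level. DESeq2 1.42.0 and limma 3.58.1 served as alternatives, and the code was tested on simulated data. CPM carry the TMM factors, and levels per kilobase use GENCODE 29 exon lengths, with the exons of all transcripts of a gene merged. A count of 3, the floor of detection by counting error alone, corresponded to 0.162 to 0.218 CPM. The 50 genes, the other lists and the tests were chosen with earlier results of these data known. One gene of the list of other pathway genes is not reported here and was left out of that list's counts. Named in full were, per role group, the gene with the smallest p; per siRNA, the 3 smallest; BRCA1, BRCA2 and PALB2; the 4 highest and 4 lowest levels per kilobase; and 6 other pathway genes. RAD51B, XRCC2, RAD50, BRIP1, CHEK1, RAD1, RAD9A, TP53BP1, RIF1, NBN, ATR, CHEK2 and ATRIP, the divergent pairs shown and the overlaps named were chosen after their values were seen. Libraries with the same replicate number in the labels did not deviate together (correlations -0.117, -0.128 and 0.00762), so the numbers were not taken as pairs.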

Additional observations from a re-analysis of the deposited data

How the results depend on the processing

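Over 13 settings of the comparison of 3 siRNAs with 3 controls, 0 of the 50 genes were called. The log2 difference kept its sign in all 13 for 28 of the 50 and turned in at least 1 for the other 22. The values of those that turned lay between -0.0768 (FANCF) and 0.0555 (RAD54B), a range that also held genes that kept their sign, such as NBN (-0.0496). With 1 library left out, it ran from -0.0648 to 0.1269 for PALB2, -0.179 to 0.1229 for XRCC2, -0.1676 to 0.077 for XRCC3, -0.056 to 0.1179 for RAD54B, -0.069 to 0.1054 for RAD50, -0.0999 to 0.0578 for EXO1, -0.1474 to 0.1699 for DNA2 and -0.1732 to 0.0339 for RMI1. It ran from -0.1151 to 0.0167 for RMI2, -0.0726 to 0.1049 for TOP3A, -0.1369 to 0.0282 for FANCA, -0.1792 to 0.0487 for FANCF, -0.1453 to 0.0611 for FANCG, -0.128 to 0.0038 for FANCL and -0.1553 to 0.0779 for FANCM. For the checkpoint and chromatin genes it ran from -0.0945 to 0.0159 (ATM), -0.1469 to 0.0286 (ETAA1), -0.099 to 0.0145 (RAD17), -0.1739 to 0.0605 (RAD1), -0.0289 to 0.0468 (RNF8), -0.0795 to 0.0282 (RNF168) and -0.1917 to 0.0011 (RIF1). With the mock as its own level, PALB2 was at -0.0645, XRCC3 at 0.0772, RAD54B at -0.0064, FANCA at 0.0114 and FANCG at 0.0614, and DNA2 was at -0.0038 by limma-voom and -0.0084 with the replicate block. For siCIP2A#3, BRCA1 (-0.02) ran from -0.0406 to 0.0061 over the controls left out. CIP2A was -2.03 with the replicate block, which called 1 gene and 0 of the 50, and -2.50 to -1.63 with a library left out. No replicate block could be fitted for single siRNAs, and leaving out the mock gives no value for the non-targeting siRNAs against it.

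Counts of calls over all genes depended on the setting. DESeq2 called 3 genes for siCIP2A against control, 75 for siCIP2A#1, 61 for siCIP2A#2, 29 for siCIP2A#3, 3 for the non-targeting siRNAs against the mock, 89 for siCIP2A#2 against #1, 96 for #2 against #3 and 144 for #1 against #3, where edgeR called 0, 16, 10, 1, 0, 2, 0 and 69. With no filter on low counts, edgeR called 3, 169, 109, 44, 5, 156, 211 and 305 in the same order. With 1 library left out it called 0 to 1 for siCIP2A against control. With a control left out it called 85 to 1896 for siCIP2A#1 (0 to 6 of the 50), 40 to 3088 for siCIP2A#2 (0 to 17) and 32 to 1330 for siCIP2A#3 (0 to 3). It called 101 to 2302 between siCIP2A#2 and #1 (0 to 7 of the 50), 108 to 3026 between #2 and #3 (0 to 17) and 213 to 2477 between #1 and #3 (0 to 12), a choice made after seeing the data. The high end came each time without the mock, where 1 residual degree of freedom is left. Otherwise 0 of the 50 were called.

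With 1 library per siRNA, no spread within an siRNA was measured. Low counts limit FANCF most (27 to 37 counts).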

Other observations

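For 3 further pairs of genes that start close together on opposite strands, chosen after their values were seen, the members and their partners had the following differences from the 3 controls. PALB2 and DCTN5, a dynactin subunit gene 82 bases away, had log2 differences of -0.02, -0.02 and 0.13 for PALB2 and of 0.16, 0.19 and 0.04 for DCTN5 with siCIP2A#1, #2 and #3. UIMC1 and ZNF346, 63 bases apart, were at -0.22, -0.21 and 0.08 for UIMC1 and at 0.01, 0.10 and 0.10 for ZNF346. TP53BP1 and MAP1A, 230 bases apart, were at -0.04, -0.25 and -0.10 for TP53BP1 and at 0.02, -0.41 and -0.62 for MAP1A.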
